A study of Mus musculus with 6 samples.

Results

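The 8 hairpins of miR-124, miR-9 and miR-128 (Mir124a-1, Mir124a-2, Mir124a-3, Mir9-1, Mir9-2, Mir9-3, Mir128-1 and Mir128-2) were followed through 6 libraries of small RNA from the J1 line of mouse embryonic stem cells. They are 8 of 1174 annotated mouse hairpins that carry a Mir symbol. The members were chosen by name, as microRNAs of neurons, with earlier results of these data known. A tag is a distinct read sequence, counted as often as it was read. Tags of 18 to 26 bases that matched a member hairpin exactly on the sense strand were summed per arm, and hairpins with the same mature tag were merged. This gave 7 arms with tags out of 1264 in the series: miR-124-3p, miR-124-5p, miR-9-5p, miR-9-3p, miR-128-3p, miR-128-1-5p and miR-128-2-5p.

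J1 cells, a mouse embryonic stem cell line, were adapted to gelatin and grown in serum replacement medium with 1000 U/ml leukemia inhibitory factor (LIF), in every group alike. Treatment lasted 24 h. Retinoic acid and BIO were given at 1 µM each, CHIR99021 at 3 µM and vitamin C at 50 µg/ml. The controls were 1 µL ddH2O for vitamin C and 1 µL DMSO for the other compounds. Retinoic acid drives stem cells towards differentiation. The kinase GSK3 is inhibited by both BIO and CHIR99021, and vitamin C serves dioxygenases as a cofactor. Each group is 1 library, so no test between treatments was possible and no p-value is given. The labels state that the raw data of the BIO library were lost; its processed table was used like the others.

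miR-124, miR-9 and miR-128 are among the most abundant microRNAs of the brain. miR-124 is a microRNA of postmitotic neurons that lowers PTBP1, a splicing repressor of non-neuronal cells. miR-9 acts in neural progenitors and young neurons, where it lowers the nuclear receptor Nr2e1 and the repressor REST and so eases progenitors out of the cell cycle. miR-128 is made from introns of neuronally expressed genes and in mice restrains neuronal excitability. A microRNA finds its targets mainly through the seed, bases 2 to 8 from its 5′ end.

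The mature sequences show which arms can be told apart and which seeds they carry. They are given from RefSeq (GRCm38.p6), 5′ to 3′ with the seed in capitals, for the 5 of 8 member hairpins that the table holds.
miR-9-5p: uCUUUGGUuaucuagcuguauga
miR-9-3p: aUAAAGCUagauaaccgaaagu
miR-128-3p: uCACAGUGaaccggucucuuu
miR-128-1-5p: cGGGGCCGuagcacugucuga
miR-128-2-5p: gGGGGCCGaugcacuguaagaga
The 5p arms of miR-128-1 and miR-128-2 shared a seed with each other. The seeds of miR-9-5p, miR-9-3p and miR-128-3p matched no other microRNA among the 1738 mature entries.

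The hairpins lie apart in the genome (GRCm38, GENCODE M21). Mir124a-1 lies at chr14:64590657-64590741 and Mir124a-2 at chr3:17795662-17795770, both on the plus strand in exons of the long noncoding RNAs Mir124a-1hg and Mir124-2hg. Mir124a-3, at chr2:180894040-180894107 on the plus strand, had no annotated host on its strand. Mir9-1 lies at chr3:88215598-88215686 in an intron of Gm3764, Mir9-2 at chr13:83738814-83738885 in an exon of C130071C03Rik and Mir9-3 at chr7:79505264-79505353 in an intron of Mir9-3hg, all on the plus strand of long noncoding RNAs. The miR-128 hairpins are the members inside protein-coding genes. Mir128-1 lies at chr1:128202361-128202430 on the plus strand in an intron of R3hdm1, and Mir128-2 at chr9:112118636-112118711 on the minus strand in an intron of Arpp21.

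The libraries held 18870345 to 23758363 tags. Levels are given as CPM, the tags of an arm per 1000000 microRNA tags of its library. MicroRNA tags numbered 729178 in the Retinoic acid library, the fewest, and 1428511 to 2155067 in the other 5 libraries. They were 3.76% of all tags in the Retinoic acid library, against 11.4% in the DMSO library. The miR-290 cluster, which marks embryonic stem cells, summed to 168346 to 342475 CPM, with at most 1 of its 15 arms at 0 in a library. It was lowest with Retinoic acid (168346 CPM, against 291806 CPM with DMSO) and at 272756 CPM or more in the other 5 libraries, and its part in the Retinoic acid differences below was not tested. The 9 arms of the miR-302 and miR-367 cluster summed to 81.5 to 254 CPM, with 1 to 3 of them at 0. Markers of fibroblasts or feeders (7 arms) summed to 1473 to 2218 CPM and those of blood cells (5 arms) to 177 to 312 CPM. Intervals below are exact 95% intervals and cover counting error only. The labels describe no molecular identifiers, so reads are not independent molecules, and the intervals leave out how much cultures or preparations vary.

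miR-124-3p and miR-128-3p were abundant in these stem cells, vehicle libraries included, whereas both arms of miR-9 stood lower. miR-128-3p ranked 22 to 31 among all arms with tags, and miR-124-3p ranked 40 to 59 outside the Retinoic acid library and 114 in it. miR-9-5p ranked 175 to 245. The arms with tags numbered 853 in the Retinoic acid library, the fewest, to 988 in the DMSO library, the most. The libraries are bulk RNA, so fewer cells of a type and less RNA per cell cannot be told apart. Over the 6 libraries miR-128-3p had 86050 tags, miR-124-3p 33476, miR-9-5p 1613, miR-9-3p 406, miR-124-5p 221, miR-128-1-5p 31 and miR-128-2-5p 2.

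miR-124-3p, the arm known as mature miR-124, was measured at 944 CPM with Retinoic acid, 3310 with BIO, 3772 with CHIR99021 and 5553 with vitamin C, against 2939 CPM with ddH2O and 2234 with DMSO. Vitamin C gave the highest level and Retinoic acid the lowest, a span of 5.89-fold. In these exact matches the intervals of no pair of neighbours in that order overlapped. The middle of the order depends on exact matching. With up to 3 added 3′ bases counted in the arm and the total, Retinoic acid was still lowest (2051 CPM), then DMSO (3632 CPM). BIO (5230 CPM), ddH2O (5244 CPM) and CHIR99021 (5343 CPM) then lay close together, below vitamin C (7829 CPM). miR-124-5p, the opposite strand of the duplex, was measured at 8.23 CPM with Retinoic acid (6 tags), 29.5 with BIO, 23.1 with CHIR99021 and 17.99 with vitamin C, against 24.6 CPM with ddH2O and 19.95 with DMSO. Its intervals overlapped between all neighbours, and the Retinoic acid library was again the lowest.

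miR-9-5p, the arm with the better known targets, was measured at 233 CPM with Retinoic acid, 99.1 with BIO, 84.7 with CHIR99021 and 185 with vitamin C, against 250 CPM with ddH2O and 152 with DMSO. The ddH2O and Retinoic acid libraries were highest and did not differ beyond counting error, and neither did BIO and CHIR99021, the lowest pair. miR-9-3p was measured at 69.9 CPM with Retinoic acid, 33.3 with BIO, 17.5 with CHIR99021 and 52.4 with vitamin C, against 53.8 CPM with ddH2O and 31.1 with DMSO. Both arms of miR-9 were lowest with CHIR99021 and were above their DMSO level with Retinoic acid, with vitamin C and with ddH2O. The vehicle of vitamin C is ddH2O, however, and with vitamin C miR-9-5p was below its ddH2O level and miR-9-3p near it.

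miR-128-3p was the steadiest member, with a span of 1.57-fold. It was measured at 7267 CPM with Retinoic acid, 8388 with BIO, 6727 with CHIR99021 and 8810 with vitamin C, against 10554 CPM with ddH2O and 8550 with DMSO. Only BIO and DMSO overlapped among the neighbours in its order. miR-128-1-5p had 0 tags with Retinoic acid, which allows up to 4.11 CPM, then 6 with BIO, 7 with CHIR99021 and 3 with vitamin C, against 4 with ddH2O and 11 with DMSO. miR-128-2-5p had 1 tag each with Retinoic acid and CHIR99021 and none in the other 4 libraries, which allows at most 1.39 to 1.72 CPM there.

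**Figure D1:**
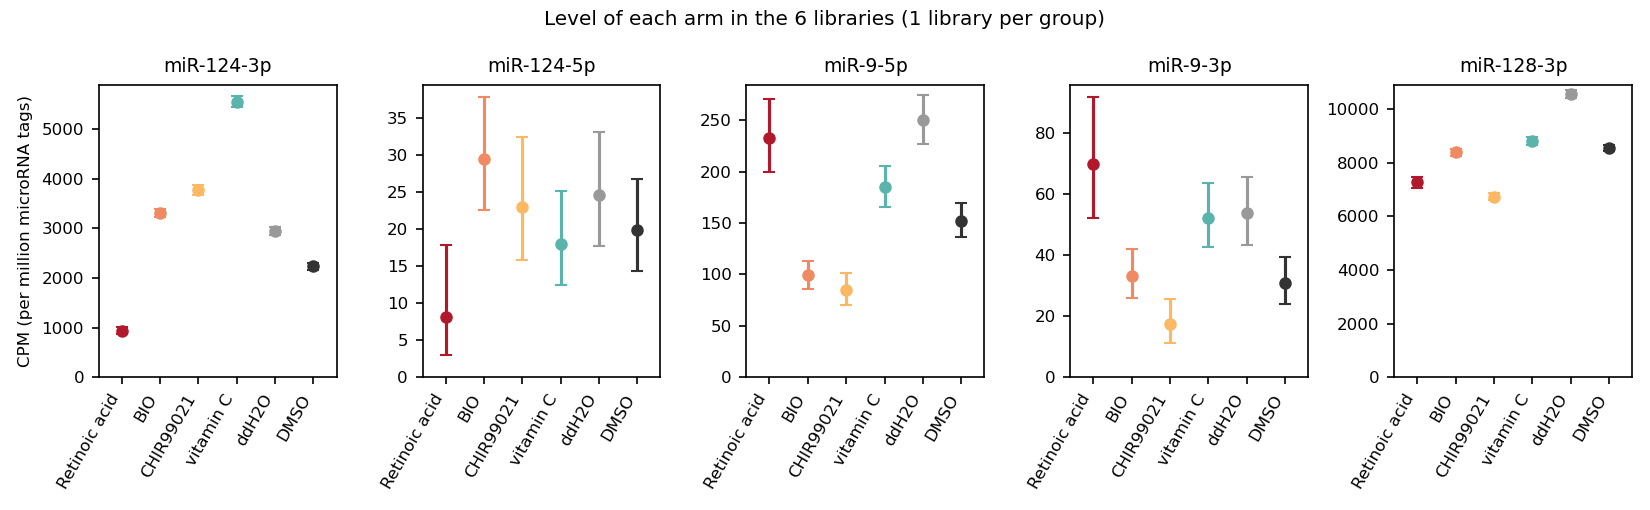
Level of the 5 better covered arms in CPM (y axis, linear, own scale per panel) in the 6 libraries; points are the libraries and bars 95% Poisson intervals for counting error. miR-124-3p was lowest with Retinoic acid (944 CPM) and highest with vitamin C (5553 CPM), whereas miR-128-3p stayed between 6727 and 10554 CPM.

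Both arms of miR-124 were lower with Retinoic acid than with DMSO, and miR-9-3p was higher. An arm was compared where the higher library had at least 10 CPM, and called where the ratio was at least 2-fold and its interval excluded 1. miR-124-3p was 2.37-fold lower with Retinoic acid than with DMSO (ratio 0.422, 0.389 to 0.458). miR-124-5p had a ratio of 0.412 (0.143 to 0.973), on 6 tags with Retinoic acid against 43 with DMSO. It was no longer called when only the most abundant tag was counted or when tags seen once were left out, which left 2 members called. miR-9-3p was 2.25-fold higher (1.53 to 3.29) and called, while miR-9-5p had a ratio of 1.53 (1.27 to 1.85) and miR-128-3p of 0.850 (0.824 to 0.876), short of a call. Of 5 members compared, 1 was called higher and 2 lower.

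The Retinoic acid comparison moved many microRNAs, so these counts stand beside a high background. Over the 534 arms compared, 33.1% were called higher and 7.68% lower, 40.8% in all, with 177 higher and 41 lower. The median log2 ratio was -0.23 over the 5 members and 0.46 over all arms. TMM scaling, which moves every log2 ratio by -0.36, left 116 arms higher and 72 lower, and scaling to all tags, a shift of -1.60, left 46 higher and 310 lower. miR-124-3p was lower under each of these scalings. miR-9-3p was no longer called after TMM scaling (log2 ratio 0.81) and turned lower when scaled to all tags (-0.43). Per 1000000 tags of any kind, miR-124-3p stood at 35.5 with Retinoic acid, against 255 with DMSO.

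On a list of other brain microRNAs, most arms compared were called higher with Retinoic acid. The list, chosen with earlier results of these data known, holds 16 further brain-enriched microRNAs, and 20 of its arms could be compared. Of these, 13 were called higher and 1 lower, beside 33.1% higher and 7.68% lower over the 534 arms. Their median log2 ratio was 2.18. TMM scaling moves each of these log2 ratios by -0.36, and scaling to all tags by -1.60. Because of how the list was chosen, its counts are a description only. miR-219a-2-3p, a microRNA of maturing oligodendrocytes, had 4025 CPM with Retinoic acid and 83.5 CPM with DMSO, 48.2-fold higher (41.4 to 56.3). miR-138-5p, which limits dendritic spine size in neurons, had 709 CPM with Retinoic acid and 65.9 CPM with DMSO, 10.8-fold higher (8.92 to 13.0). miR-129-2-3p was 3.92-fold higher (3.53 to 4.36). miR-149-3p was the arm called lower (32.9 CPM with Retinoic acid and 116 CPM with DMSO). miR-7a-5p, which is abundant in neuroendocrine cells, had 1001 CPM with Retinoic acid and 1280 CPM with DMSO and was not called. The 6 glial marker arms, those of miR-219a and miR-338, all belong to this list and are not a separate set. They summed to 4689 CPM with Retinoic acid, of which miR-219a-2-3p had 4025 CPM, against 211.6 CPM with DMSO. miR-338-5p was at 0 in both. The part of the glial arms in the members' values was not tested.

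With the GSK3 inhibitors the families parted: miR-124-3p was above its DMSO level and miR-9-5p below it in both libraries, and neither was called. Scaled to all tags, miR-124-3p with CHIR99021 turned to a log2 ratio of -0.17. With untemplated ends counted, its ratio to DMSO was 1.44 (1.40 to 1.48) with BIO and 1.47 (1.43 to 1.52) with CHIR99021. Counted in this way, the ddH2O library was at 1.44 (1.40 to 1.49), so both inhibitors lay within counting error of the vehicle difference. For BIO against DMSO the ratio of miR-124-3p was 1.48 (1.43 to 1.54), that of miR-9-5p 0.651 (0.544 to 0.777) and that of miR-9-3p 1.07 (0.756 to 1.52). miR-128-3p had a ratio of 0.981 (0.961 to 1.002). For CHIR99021 against DMSO the ratio of miR-124-3p was 1.69 (1.62 to 1.76), that of miR-9-5p 0.557 (0.448 to 0.688) and that of miR-9-3p 0.563 (0.341 to 0.903). miR-128-3p had a ratio of 0.787 (0.768 to 0.806). miR-124-5p had ratios of 1.48 (0.987 to 2.24) with BIO and 1.16 (0.713 to 1.87) with CHIR99021, on 62 and 33 tags. Both comparisons share the DMSO library.

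None of the 5 members compared was called with either inhibitor. Over all arms the rule called 1.91% higher and 5.3% lower with BIO, 7.2% of 472 in all, and 6.25% higher and 12.3% lower with CHIR99021, 18.5% of 480 in all. In these comparisons 9 arms were higher and 25 lower with BIO, and 30 were higher and 59 lower with CHIR99021. Median-of-ratios scaling gave 17 higher and 17 lower with BIO, and TMM scaling 36 higher and 39 lower with CHIR99021. The members' median log2 ratio was 0.10 with BIO and -0.35 with CHIR99021, beside -0.09 and -0.11 over all arms. On the brain list 0 of 13 arms were higher and 1 lower with BIO (miR-212-5p), and 0 of 13 higher and 3 lower with CHIR99021 (miR-129-1-3p, miR-7-1-3p and, chosen after its value was seen, miR-212-5p).

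miR-124-3p was the one member above its ddH2O level with vitamin C, at a ratio of 1.89 (1.83 to 1.95), just short of a call; under other scalings miR-9-3p lay on either side of its ddH2O level. The ratio of miR-124-5p was 0.732 (0.452 to 1.17), so its interval included 1. miR-9-5p had a ratio of 0.739 (0.640 to 0.852), miR-9-3p of 0.974 (0.727 to 1.31) and miR-128-3p of 0.835 (0.817 to 0.852). None of the 5 was called, beside 5.98% called higher and 1.44% lower of 485 arms in this comparison, 7.42% in all. The members' median log2 ratio was -0.26, beside -0.01 over all arms. Of 14 arms on the brain list, miR-129-1-3p was called higher and miR-132-3p lower. The miR-132-3p call rests on 7 tags with vitamin C and 19 with ddH2O, where it had 10.9 CPM, near the minimum of 10 CPM.

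The vehicle libraries give the one difference without a compound. For ddH2O against DMSO the ratio was 1.32 for miR-124-3p (1.26 to 1.37), 1.23 for miR-124-5p (0.789 to 1.93), 1.64 for miR-9-5p (1.42 to 1.90), 1.73 for miR-9-3p (1.25 to 2.40) and 1.23 for miR-128-3p (1.21 to 1.26). No member was called, beside 4.97% called higher and 2.28% lower of 483 arms, 7.25% in all. These are 24 higher and 11 lower, or 16 higher and 20 lower after TMM scaling. On the brain list miR-132-3p was called higher and miR-149-3p lower, of 14 arms. The miR-132-3p call rests on 19 tags with ddH2O, the same as in the vitamin C comparison, and 10 with DMSO. The Retinoic acid ratio of miR-9-5p, 1.53 (1.27 to 1.85), lay within counting error of this vehicle difference. Scaled to all tags, it turned to 0.505, beside 1.23 between vehicles. Set against ddH2O, miR-9-5p with Retinoic acid was at a log2 ratio of -0.10 and miR-9-3p at 0.39, and miR-124-3p remained called lower. With the same vehicle, miR-124-3p was at a log2 ratio of only 0.17 with BIO. In templated tags, the differences of miR-124-3p with Retinoic acid (2.37-fold) and vitamin C (1.89-fold) exceeded the 1.32-fold between vehicles. With untemplated ends counted, the vitamin C ratio was 1.49 (1.46 to 1.53), close to the 1.44 (1.40 to 1.49) between vehicles. Over the forms of the main start with at least 21 templated bases, tailed or not, both ratios were 1.47, so the vitamin C difference no longer exceeded that between vehicles.

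**Figure D2:**
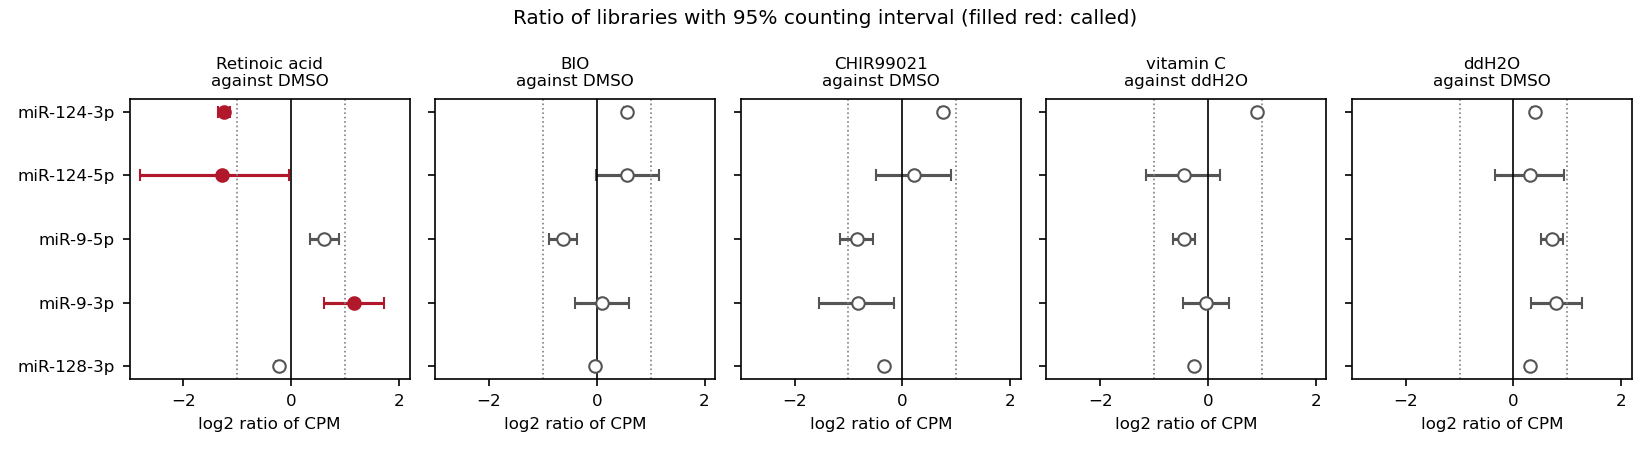
Log2 ratio of CPM (x axis) of 5 member arms in the 5 comparisons, 1 panel each; bars are 95% intervals for counting error, dotted lines mark 2-fold, and filled red points were called. Called members appear in the Retinoic acid panel only: both miR-124 arms lower (ratios 0.422 and 0.412) and miR-9-3p higher (2.25).

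**Figure D3:**
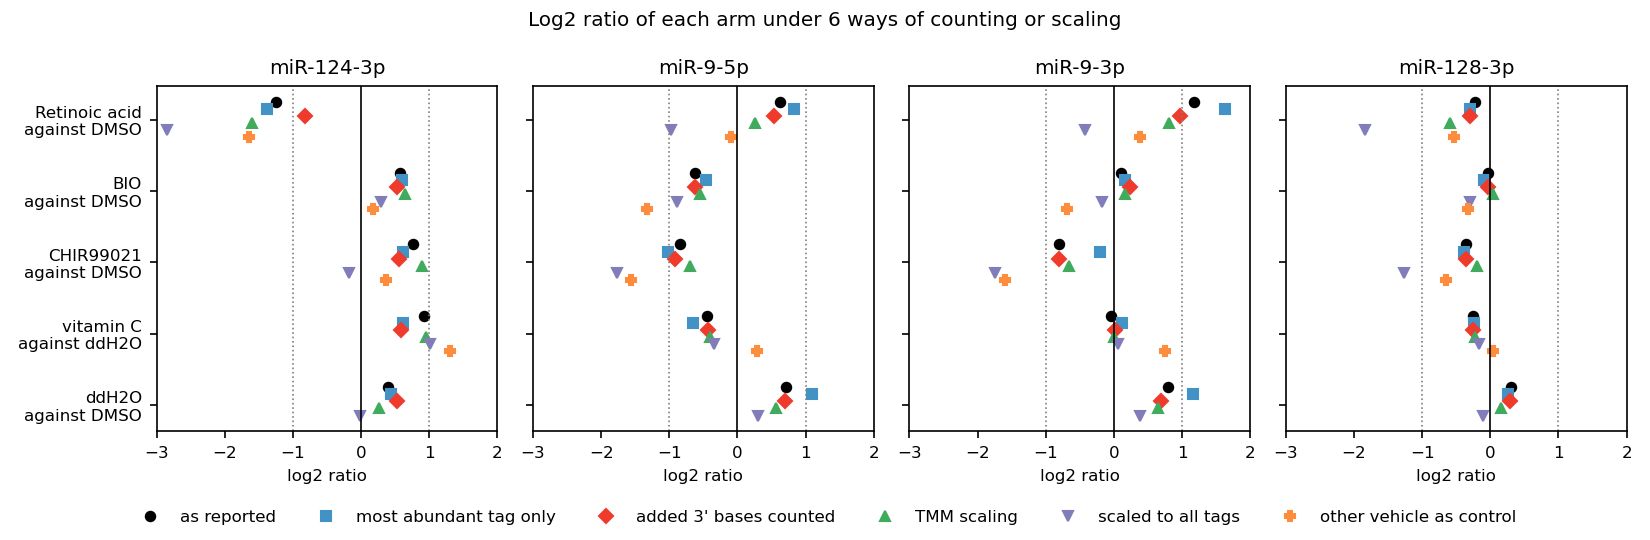
Log2 ratio (x axis) of miR-124-3p, miR-9-5p, miR-9-3p and miR-128-3p for the 5 comparisons (rows) under 6 ways of counting, scaling or choosing the vehicle. miR-124-3p with Retinoic acid stayed below 0 under each, between -2.84 and -0.82, whereas miR-9-3p with Retinoic acid lay on both sides of 0.

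Arms outside the families with the closest profile were found over the 6 libraries among arms at 100 CPM or more in their highest library. The measure was the root mean square difference of log2(CPM + 1), centred on each arm's mean. miR-692-2-3p/miR-692-3-3p (0.31), miR-181d-5p (0.34) and miR-295-5p (0.42) were nearest to miR-124-3p. miR-181d-5p had 8907 CPM with Retinoic acid, 23841 with BIO, 25484 with CHIR99021 and 27217 with vitamin C, against 27434 with ddH2O and 20843 with DMSO. For miR-9-5p the nearest were miR-449c-5p (0.15), miR-127-3p (0.22) and miR-299a-3p (0.23). miR-128-3p had the closest neighbours, miR-7a-5p (0.071), miR-130b-3p (0.11) and miR-17-3p (0.11). These distances share the same 6 libraries and are a description.

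The ends of the tags separated the families further. miR-124-3p carried many untemplated 3′ bases: with up to 3 added bases counted, tags that ended in added T only made up 57.9% with Retinoic acid, 40.9% with BIO, 33.6% with CHIR99021 and 34.8% with vitamin C, against 47.1% with ddH2O and 41.8% with DMSO. The addition of U to 3′ ends (read as T) is a known modification of mature microRNAs, made by terminal uridylyltransferases. Whether a base was added was judged against the annotated hairpins, not the whole genome. Over the arms with at least 500 tags in every library the median T-only share was 1.54% to 2.08%, and miR-124-3p ranked from 3 to 6. miR-345-3p and miR-341-3p were above it in every library. The share of miR-124-3p was highest with Retinoic acid, where templated miR-124-3p was lowest, and the intervals of the Retinoic acid (55.5 to 60.2%) and DMSO (40.8 to 42.9%) libraries did not overlap. Templated tags are part of the total from which this share is taken. The median share over the well covered arms was also highest with Retinoic acid, at 2.08%, against 1.69% with DMSO. miR-341-3p had 71.4% with Retinoic acid and 59.8% with DMSO, whereas miR-345-3p had 68.4% in both.

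On miR-128-3p the added bases that could be told from both hairpins were mostly A. Its A-only share was 6.61% with Retinoic acid, 6.72% with BIO, 7.18% with CHIR99021 and 6.06% with vitamin C, against 6.34% with ddH2O and 5.96% with DMSO. This ranked 27 to 32 among the well covered arms, whose median was 2.98% to 3.26%. Its T-only share was at most 0.037%, but an added T that continues the Mir128-1 hairpin counts as templated. miR-9-5p had 1.59% to 5.09% of tags with added T and miR-9-3p 3.77% to 19.3%, on 126 to 468 and 29 to 109 tags in a library.

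**Figure D4:**
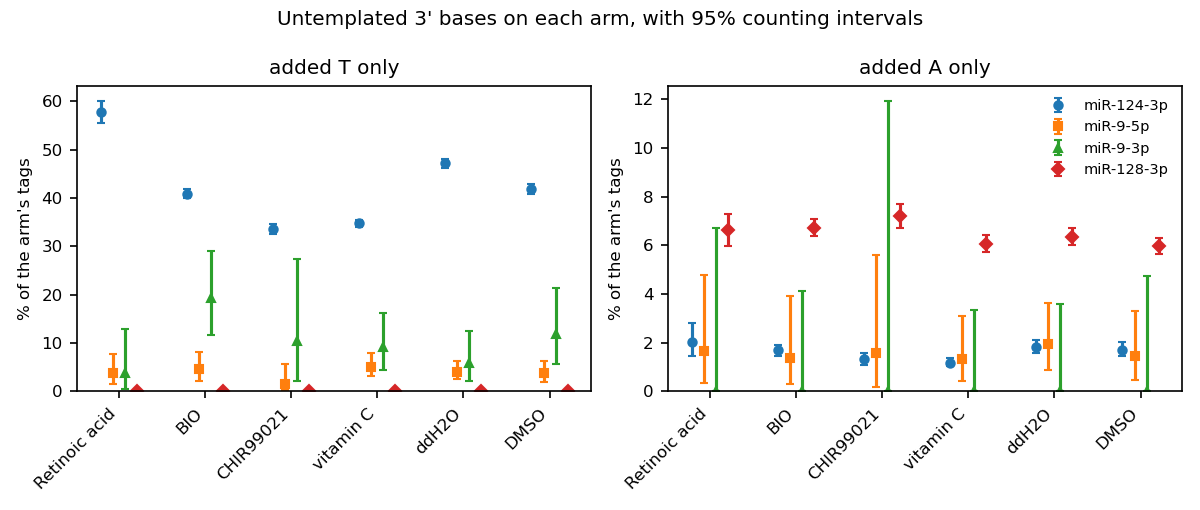
Share of an arm's tags (y axis, %) that end in untemplated T only (left) or A only (right) in the 6 libraries; points are libraries and bars 95% Clopper-Pearson intervals. The T-only share of miR-124-3p lay between 33.6% and 57.9%, above the other 3 arms in every library, and the A-only share of miR-128-3p between 5.96% and 7.18%.

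Splitting miR-124-3p by its 3′ end, with forms chosen after their values were seen, showed that its forms did not move together. With Retinoic acid the templated 22-base form had 723 CPM, against 1831 CPM with DMSO, 2.53-fold lower (2.31 to 2.78). The form of 21 templated bases and 1 added T had 625 CPM with Retinoic acid and 694 CPM with DMSO, a ratio of 0.901 (0.809 to 1.001). The form of 21 bases and 2 T had a ratio of 0.844 (0.731 to 0.972), and that of 22 bases and 1 T one of 0.756 (0.652 to 0.873). Templated forms did not move as one either: those of 20 bases or fewer had a ratio of 0.783 (0.627 to 0.971), near the tailed forms, and the 21-base form had the lowest ratio, 0.178 (0.0838 to 0.336), on 10 tags with Retinoic acid. With tails counted in both the arm and the total, miR-124-3p had 2051 CPM with Retinoic acid and 3632 CPM with DMSO, a log2 ratio of -0.82 and no longer a call.

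With vitamin C the ratio was larger for the shorter templated forms than for the 22-base form. The 21-base form had 889 CPM with vitamin C and 40.03 CPM with ddH2O, 22.2-fold higher (17.5 to 28.6). The vehicles themselves differed in this form, with a ratio of 0.520 (0.387 to 0.691) for ddH2O against DMSO, and set against DMSO the vitamin C level was 11.5-fold higher (9.84 to 13.6). Forms of 20 bases or fewer had 550 CPM with vitamin C and 166 CPM with ddH2O, 3.30-fold higher (2.90 to 3.77). The 22-base form was 1.52-fold higher (1.47 to 1.58), and 21 bases with 2 T had a ratio of 1.04 (0.954 to 1.14). With CHIR99021 the 21-base form was higher as well: it had 427 CPM with CHIR99021 and 77.0 CPM with DMSO, 5.54-fold higher (4.66 to 6.62). With BIO it had 62.9 CPM, against 77.0 CPM with DMSO (ratio 0.816, 0.644 to 1.03), and a ratio of 1.57 (1.17 to 2.13) set against ddH2O.

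As a share of the 22-base and 21-base forms together, the 21-base form of miR-124-3p was 1.86% with Retinoic acid, 2.10% with BIO, 12.9% with CHIR99021 and 18.7% with vitamin C, against 1.55% with ddH2O and 4.04% with DMSO. The same share of miR-128-3p, for its own 20-base form, stayed between 2.12% and 2.94%. Over 97 well covered arms the median difference of vitamin C from ddH2O was 0.59 percentage points. That of miR-124-3p was 17.1 points and ranked 1, ahead of miR-33-5p with 11.1 points. For CHIR99021 and DMSO it was 8.86 points and ranked 4, behind miR-92b-5p, miR-33-5p and the merged miR-199a-1-3p/miR-199a-2-3p/miR-199b-3p. Tags of at most 19 bases made up 18.7% of all tags with vitamin C and 15.8% with CHIR99021, but also 14.4% with Retinoic acid, 8.01% with BIO, 10.99% with ddH2O and 10.9% with DMSO. The part of this length difference in the 21-base form was not tested.

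**Figure D5:**
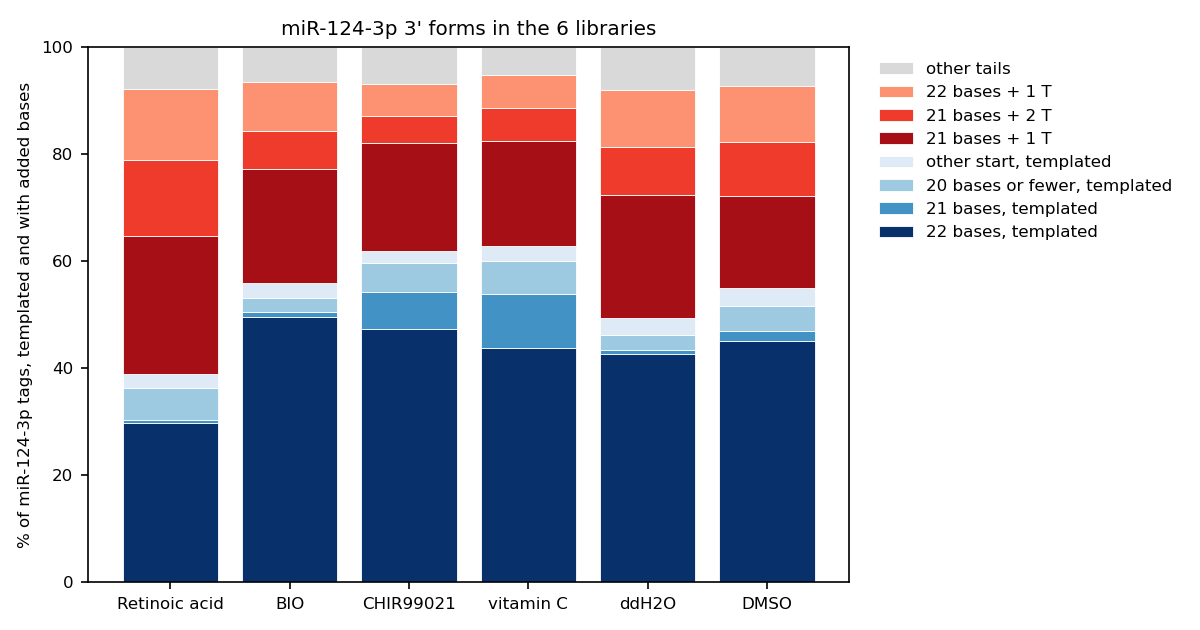
Composition of miR-124-3p tags by 3′ form (stacked bars, % of all its tags with up to 3 added bases) in the 6 libraries; blue shades are templated and red shades carry added T. The templated 22-base form was 29.8% with Retinoic acid and 42.8% to 49.5% elsewhere, and the templated 21-base form reached 7.01% with CHIR99021 and 10.1% with vitamin C.

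The use of the 2 arms also differed between families. miR-124 was read from its 3p arm, with 115 3p tags per 5p tag with Retinoic acid, 112 with BIO, 163 with CHIR99021 and 309 with vitamin C, against 120 with ddH2O and 112 with DMSO. The vitamin C ratio was the highest, with the 3p arm above its ddH2O level and the 5p arm below it. The Retinoic acid ratio rests on 6 5p tags. All these ratios use exact matches only, and their order depends on this. With added 3′ bases counted, the 3p and 5p arms had 1770 and 6 tags with Retinoic acid. They had 10420 and 43 tags with ddH2O, and 8754 and 44 with DMSO. miR-9 was read from both arms: its 5p share was 76.9% with Retinoic acid, 74.8% with BIO, 82.9% with CHIR99021 and 77.9% with vitamin C, against 82.3% with ddH2O and 83.0% with DMSO. miR-128 gave at least 1201 3p tags per 5p tag in every library.

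The 5′ end sets the seed, and miR-9-3p is where it varied. Of 406 tags, 298 (73.4%, 68.8 to 77.6%) began 1 base inside the RefSeq start and 108 (26.6%) began at it, which shifts the seed by 1 base. The share with the RefSeq start was 25.5% with Retinoic acid, 31.4% with BIO and 24.2% with vitamin C, against 30.9% with ddH2O and 28.4% with DMSO. With CHIR99021 it was 1 of 25 tags. One start held 99.1% of miR-9-5p tags, 99.8% of miR-128-3p tags and 95.1% of miR-124-3p tags. The most abundant deposited tags show this, written as DNA with bases 2 to 8 in capitals.
miR-9-3p, 1 base inside (205 tags): tAAAGCTAgataaccgaaagta
miR-9-3p, RefSeq start (80 tags): aTAAAGCTagataaccgaaagta
miR-9-5p (908 tags): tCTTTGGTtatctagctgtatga
The shifted seed of miR-9-3p matched no mature entry of the RefSeq table.

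Most tags could not be traced to 1 locus. No tag was particular to any of the 3 miR-124 or 3 miR-9 hairpins, so the locus in use cannot be read from these data. miR-128 had such tags: 6610 matched Mir128-1 only, 31 of them from its 5p arm, and 51 matched Mir128-2 only, 2 of them from its 5p arm. Of these, 6309 and 49 are 3p tags that end with the base after the shared 21-base miR-128-3p.
miR-128-3p, both hairpins (77034 tags): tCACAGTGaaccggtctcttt
miR-128-3p, Mir128-1 only (6309 tags): tCACAGTGaaccggtctctttt
The longer tag was 8.30% of miR-128-3p tags with Retinoic acid, 7.57% with BIO, 7.35% with CHIR99021 and 7.14% with vitamin C, against 7.45% with ddH2O and 6.87% with DMSO. Tags with the C that Mir128-2 encodes at this place numbered 49, or 0.0569%, beside 64 with G and 4739 with A, which neither hairpin encodes there. The C count was thus no higher than that of an untemplated base. A T added to a product of Mir128-2 cannot be told apart from the T that Mir128-1 encodes.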

How the data were processed

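Small RNA of 6 libraries was analysed, 1 per group. The deposited files hold raw counts per distinct read sequence. Libraries were made with an Illumina TruSeq RNA kit from total RNA, per the labels' protocols, and the submitters' processing notes name the build mm9. The steps that trimmed and collapsed the reads are not given in the sources used here. Coordinates here are those of GRCm38 (GENCODE M21), since tags were matched to its hairpins by sequence.

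Counting was done in Python 3.11.15 with scipy 1.17.1. An arm was set by its most abundant tag, and tags starting within 2 bases of it were summed. Tags that also matched ribosomal, mitochondrial, small nuclear or small nucleolar RNA were left out, and tags of several arms were split evenly. Log2 ratios used a pseudocount of 0.5. Levels carry 95% Poisson intervals, and ratios exact conditional binomial (Clopper-Pearson) intervals. Tail and end shares were ranked over arms with at least 500 tags in every library. A count of 0 was read as up to 3 counts. Counting was tested on simulated data.

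The named arms are all member arms. For the list of brain-enriched microRNAs, up to 2 called arms at each extreme and the 4 most abundant were eligible. For likeness, the 3 nearest arms were named. Other arms were named after their values were seen. The members and lists were chosen with earlier results of these data known. Alternatives were the TMM factors of edgeR 4.0.16, the median-of-ratios size factors of DESeq2 1.42.0, scaling to all tags, other tag sets, other minimum levels and the other vehicle.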

Additional observations from a re-analysis of the deposited data

How the results depend on the processing

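No paired analysis was possible because each group is 1 library. For the 20 log2 ratios of miR-124-3p, miR-9-5p, miR-9-3p and miR-128-3p, 166 alternative values kept direction and call, 17 turned direction, and of those that kept it 12 gained a call and 6 lost one. The causes were not tested. With Retinoic acid, counting untemplated ends gave -0.82 for miR-124-3p and 0.97 for miR-9-3p, both no longer called, and 1 member called in place of 3. Grouping miR-124-3p by its last templated base, chosen after seeing the data, gave -0.83. miR-9-3p was at 0.81 with TMM and with median-of-ratios scaling. Scaled to all tags, miR-9-5p turned to -0.98 and miR-9-3p to -0.43, no longer called, and miR-128-3p reached -1.84. A minimum of 100 CPM left 1 member called. Against ddH2O, miR-9-5p was at -0.10 and miR-9-3p at 0.39.

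With BIO, miR-128-3p turned to 0.04 (TMM) and 0.10 (median-of-ratios), and miR-9-3p to -0.18 (all tags). Against ddH2O, miR-9-5p was at -1.33 and miR-9-3p at -0.69, with 1 member called. With CHIR99021, the most abundant tag alone put miR-9-5p at -1.02, with 1 called. Scaling to all tags put miR-124-3p at -0.17, miR-9-5p at -1.77, miR-9-3p at -1.74 and miR-128-3p at -1.27, with 3 called. Against ddH2O, miR-9-5p was at -1.56 and miR-9-3p at -1.60, with 2 called.

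With vitamin C, miR-9-3p turned to 0.01 (untemplated ends), 0.12 (most abundant tag), 0.00 (TMM), 0.06 (all tags) and 0.75 (against DMSO). miR-124-3p was called at 1.01 (all tags) and 1.31 (against DMSO), with 1 member called under each. Against DMSO, miR-9-5p was at 0.28 and miR-128-3p at 0.04. For ddH2O against DMSO, the most abundant tag alone put miR-9-5p at 1.09 and miR-9-3p at 1.16, with 2 called, and scaling to all tags put miR-124-3p at -0.02 and miR-128-3p at -0.11.

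Depth limits the Retinoic acid library most: 0 tags there allow up to 4.11 CPM, and its miR-124-5p ratio rests on 6 tags. miR-9-3p had 25 to 99 tags in a library.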

Other observations

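Some tags of the member hairpins belong in no comparison. Antisense tags of 18 to 26 bases matched the miR-124 hairpins in every library: 4 with Retinoic acid, 5 with BIO, 1 with CHIR99021 and 6 with vitamin C, against 2 with ddH2O and 4 with DMSO. None matched the miR-9 or miR-128 hairpins. Sense tags of 27 to 44 bases, which would hold more than the mature arm, numbered 1 over all 8 hairpins, for miR-124 with vitamin C.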
